A study of Homo sapiens with 4 samples.

Results

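Some sites bound in chromatin labelled as HNF1-bound lay close together along the genome, and these closely spaced sites are described here. The sites come from Caco2 cells, an established line from a human colorectal adenocarcinoma that serves to study intestinal epithelium. The assay was ChIP-seq, in which DNA fragments recovered from chromatin with an antibody are sequenced and pile up as peaks. The labels give 2 HNF1 immunoprecipitations, each with a deposited peak list, and 2 inputs made without antibody, all from Caco2 cells in low-glucose DMEM with serum and with no treatment named. A region was called shared when a peak of replicate 1 and a peak of replicate 2 overlapped by at least 1 bp, and the overlapping peaks were joined. The members were chosen by measured peak positions: every shared region whose midpoint lay within 10 kb of the midpoint of another shared region, at any score, with chromosomes X and Y left out. This gave 293 clustered regions out of 2849 shared regions on the autosomes (10.3%) and out of 6986 distinct regions in either list. That share follows from the choice itself and is given as a description only.

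HNF1 (hepatocyte nuclear factor 1) is a homeodomain transcription factor activity that binds DNA as a dimer, at a palindromic site. It is active in liver, kidney, pancreas and intestine, where it is known to act on genes for digestive enzymes, transporters and secreted proteins. Regulatory elements of genes with high expression in a tissue often hold several binding sites over a few kilobases, as a promoter with one or more enhancers. The antibody field names HNF1, but the extraction protocol given for every library mentions an antibody against FOXA2. Which target applies was not tested, and the name HNF1 follows the titles and the antibody field.

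Positions are those of the hg19 build used in the deposited lists, counted from 1. No sequence or gene annotation of that build was used here, so no bases are printed and no gene is assigned to a region. Replicate 1 held 11931439 tags and 5060 peaks, and replicate 2 held 18469659 tags and 4955 peaks. The score of a peak is the authors' tag count scaled to 10000000 tags per library and rounded, so each tag adds 0.838 to a score in replicate 1 and 0.541 in replicate 2. At the median of the clustered regions, a score of 18 in replicate 1 stands for 21 tags, with an exact Poisson 95% interval of 10.9 to 26.9 on the score scale. A score of 17 in replicate 2 stands for 31 tags, with an interval of 11.4 to 23.8. These intervals cover counting error only. Each library has 1 list, so values are given per library with no standard deviation. The labels do not state whether the replicates were separate cultures, and their spread may be technical.

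The first question was how the clustered regions were arranged. Chaining regions whose midpoints lay at most 10 kb apart gave 140 groups, of which 129 were pairs, 9 held 3 regions and 2 held 4. Under this limit, most groups of regions found in both lists were thus pairs. The span from first to last midpoint had a median of 4614 bp and ran from 494 to 17120 bp. The 153 distances between neighbours in a group had a median of 3932 bp, with quartiles at 1783 and 6891 bp. Short distances were the more frequent, with 42 of the 153 at 2 kb or less and 20 of those at 1 kb or less, against 11 between 9 and 10 kb. Numbers continued at a like level beyond the limit, with 11 neighbours between 10 and 11 kb and 91 between 10 and 20 kb. The shortest distance was 456 bp, and the calling itself allowed no neighbours closer than 284 bp (replicate 1) or 452 bp (replicate 2). With a limit of 5 kb in place of 10 kb, 168 regions in 82 groups would be members, and with 20 kb 452 regions in 208 groups. The 10 kb limit therefore does not mark a gap in the spacing.

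**Figure D1:**
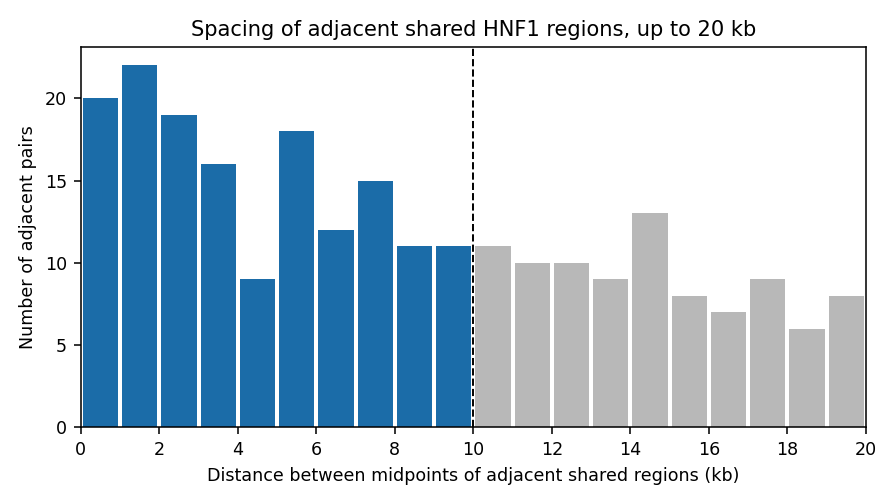
Number of adjacent pairs of shared regions (vertical axis) by distance between their midpoints in kb (horizontal axis, bins of 1 kb), with the 10 kb limit as a dashed line. Blue bars are the 153 distances inside groups, highest at 22 between 1 and 2 kb, and grey bars are the 91 distances between 10 and 20 kb.

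Clustered regions were found on all 22 autosomes. Chromosome 3 held the most, 33 regions in 16 groups, followed by chromosome 2 with 29 in 13 groups and chromosome 11 with 24 in 12 groups. Among chromosomes with over 100 shared regions, the clustered share was highest on chromosome 11, at 14.1% of 170 (Wilson 95% interval 9.67% to 20.1%), and on chromosome 3, at 14.0% of 235 (10.2% to 19.1%). Among these chromosomes it was lowest on chromosome 8, at 7.34% of 109 (3.77% to 13.8%), and on chromosome 17, at 7.48% of 107 (3.84% to 14.1%). On chromosome 1 it was 7.93% of 227 (5.07% to 12.2%), and on chromosome 2 it was 9.29% of 312 (6.55% to 13.0%). These intervals overlap each other, and they treat regions as independent although clustered regions enter in groups. An order of chromosomes was not tested.

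The 2 groups of 4 differed in the level of their scores. The group on chromosome 13 from 27525904 to 27543262 spanned 17120.5 bp and ranked 5 in replicate 1 and 4 in replicate 2 by summed score among the 140 groups. Its regions scored 18, 18, 34 and 55 in replicate 1 and 18, 27, 31 and 36 in replicate 2, in order of position. In both libraries the scores did not fall from any region to the next along the chromosome, and the last was the highest. The group on chromosome 6 from 111060199 to 111076847 spanned 16411 bp and was weak, apart from its second region in replicate 2. It scored 11, 10, 8 and 9 in replicate 1 and 10, 17, 9 and 8 in replicate 2, where the lowest score of any clustered region was 7 in both lists. The highest region was the first in replicate 1 and the second in replicate 2, with 1 score unit between them in replicate 1.

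The groups of 3 ranged from tightly to widely spaced. On chromosome 2 from 43388846 to 43390352, 3 regions lay within 1272.5 bp, with midpoints 456 and 816.5 bp apart. They scored 24, 44 and 72 in replicate 1 and 28, 32 and 62 in replicate 2, rising with position in both libraries. On chromosome 5 from 147211178 to 147217872, the 3 regions scored 34, 17 and 63 in replicate 1 and 18, 51 and 125 in replicate 2. The last of them was the highest scored peak of the whole replicate 2 list and ranked 52 in replicate 1. It led in both libraries, while the order of the other 2 regions was reversed. A second group on chromosome 5, from 123991715 to 123998335, had a strong central region flanked by weaker ones, with scores of 18, 55 and 13 in replicate 1 and 26, 38 and 17 in replicate 2.

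On chromosome 2 from 88427551 to 88439063, the regions scored 45, 13 and 23 in replicate 1 and 36, 14 and 23 in replicate 2. Their order was the same in both libraries, with the weakest in the middle. The group on chromosome 16 from 82084466 to 82093861 scored 29, 25 and 18 in replicate 1 and 34, 42 and 32 in replicate 2. Its regions were closer to each other in height, and the first led in replicate 1 and the second in replicate 2. On chromosome 6 from 106496385 to 106503714 the scores were lower, with 12, 16 and 16 in replicate 1 and 15, 11 and 21 in replicate 2.

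The remaining 3 groups of this size are named to complete the set. That on chromosome 6 from 12364107 to 12372177 scored 35, 12 and 18 in replicate 1 and 17, 9 and 25 in replicate 2, so that the outer regions exchanged the lead. That on chromosome 3 from 66527469 to 66531837 scored 8, 23 and 22 in replicate 1 and 15, 15 and 21 in replicate 2. That on chromosome 2 from 162922291 to 162931830 scored 18, 20 and 7 in replicate 1 and 35, 28 and 10 in replicate 2. Its last region was the weakest in both libraries and lay 7394 bp from the second. Among all 11 groups of 3 or more, the same region led in both libraries in 5, another region led in 5, and 1 had a tied lead.

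**Figure D2:**
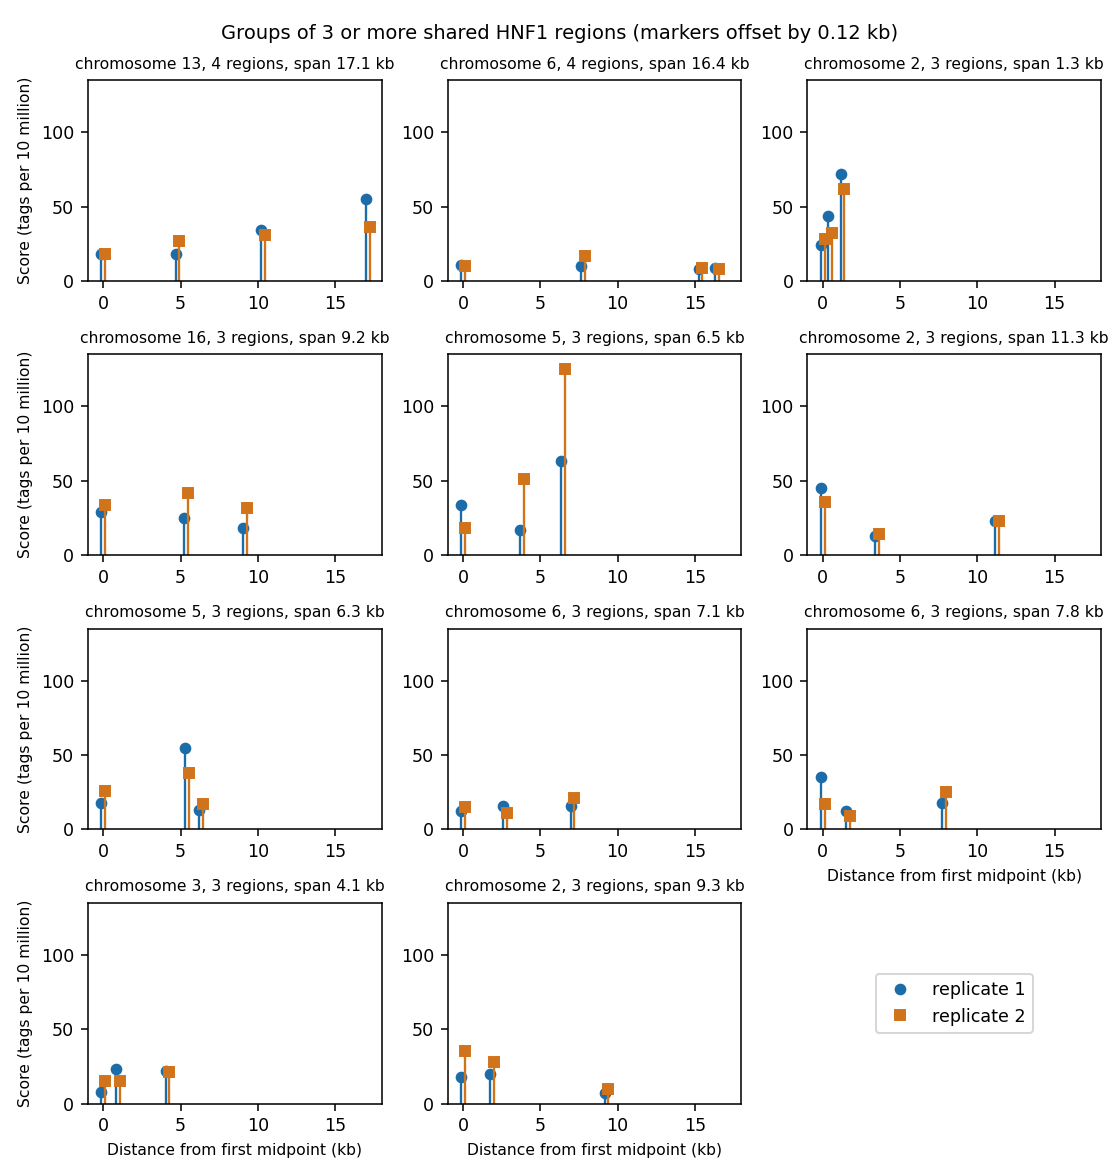
Scores (vertical axis, tags per 10000000) of each region in the 11 groups of 3 or more, by distance from the first midpoint in kb (horizontal axis), with circles for replicate 1 and squares for replicate 2. The chromosome 13 group ends on its highest region in both libraries (55 and 36), and the chromosome 5 group with a span of 6.5 kb reaches 125 in replicate 2.

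Among pairs, those in which both regions ranked well in both lists are described first. The pair on chromosome 20 from 43023300 to 43029900 scored 69 and 79 in replicate 1 and 43 and 38 in replicate 2, at a distance of 6355 bp. Its regions were nearly equal in height in each library and exchanged the lead between them. The pair on chromosome 2 from 43205599 to 43207058 lay 1232 bp apart and scored 85 and 82 in replicate 1 and 36 and 57 in replicate 2. The pair on chromosome 1 from 234775083 to 234779242 scored 48 and 36 in replicate 1 and 42 and 36 in replicate 2. On chromosome 5 from 156476667 to 156486332, the pair scored 31 and 61 in replicate 1 and 33 and 44 in replicate 2. In these 4 groups, and in no other of the 140, every region stood in the top 10% of both lists by score rank.

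The next pairs by rank kept their order in both libraries with 1 exception. On chromosome 17 from 48770548 to 48771705 the regions scored 29 and 34 in replicate 1 and 31 and 21 in replicate 2, and here the lead changed. On chromosome 11 from 123083993 to 123088826 the second region led, with 30 and 35 in replicate 1 and 21 and 30 in replicate 2. It also led on chromosome 2 from 8765531 to 8774136, with 39 and 46 in replicate 1 and 20 and 30 in replicate 2. The pair on chromosome 3 from 168986925 to 168991444 scored 29 and 49 in replicate 1 and 20 and 40 in replicate 2. The first region led on chromosome 1 from 202004066 to 202012704, with 60 and 26 in replicate 1 and 40 and 20 in replicate 2. On chromosome 10 from 71845806 to 71850972 the regions were alike, with 28 and 27 in replicate 1 and 22 and 20 in replicate 2, differences of 1 and 2 score units.

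The 5 closest pairs had midpoints 494 to 612.5 bp apart. The closest, on chromosome 13 from 73614741 to 73615493, scored 12 and 9 in replicate 1 and 20 and 21 in replicate 2. On chromosome 5 from 16521772 to 16522562 the first region led, with 31 and 11 in replicate 1 and 32 and 22 in replicate 2. On chromosome 4 from 115484532 to 115485392 the second led, with 8 and 22 in replicate 1 and 15 and 17 in replicate 2. The other pairs, on chromosome 15 from 65336630 to 65337468 and on chromosome 2 from 137965755 to 137966613, changed their lead. They scored 32 and 17 and, on chromosome 2, 20 and 15 in replicate 1, against 16 and 22, and 15 and 22, in replicate 2. The lead thus differed between the libraries in 3 of these 5 pairs.

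The 5 widest pairs had midpoints 9492 to 9971 bp apart. The widest, on chromosome 19 from 38422635 to 38432832, scored 29 and 8 in replicate 1 and 12 and 9 in replicate 2. The pair on chromosome 12 from 9274870 to 9285004, at 9908 bp, scored 18 and 26 in replicate 1 and 26 and 41 in replicate 2. On chromosome 9 from 109683228 to 109693100, at 9639.5 bp, the scores were 15 and 34 in replicate 1 and 23 and 10 in replicate 2. This was the 1 pair whose regions differed by at least 2-fold in both libraries but in opposite directions. On chromosome 1 from 220872005 to 220881865 the first region led, with 16 and 8 in replicate 1 and 18 and 11 in replicate 2. On chromosome 11 from 118073411 to 118083139 the regions scored 24 and 21 in replicate 1 and 20 each in replicate 2. Just outside the limit, at 10050 bp, lay regions on chromosome 15 at 59548296 and 59558346, with scores of 20 and 8 in replicate 1 and 18 and 13 in replicate 2. The 3 pairs nearest the limit on the inside had scores of 8 to 41, and the 3 nearest on the outside had scores of 8 to 25.

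The second question was how high the clustered regions scored beside the other shared regions. Replicate 1 scores ran from 7 to 113 with a median of 18 and quartiles of 11 and 29, against a median of 15 and quartiles of 11 and 24 in the 2556 other shared regions. Replicate 2 scores ran from 7 to 125 with a median of 17 and quartiles of 12 and 25, against 14, 10 and 20. In replicate 1 the lower quartiles were thus equal, and the median and upper quartile were higher among clustered regions. In replicate 2 the median and both quartiles were higher among them. A place in the top 10% of both lists was held by 50 of the 293 (17.1%, 13.2% to 21.8%), against 9.62% of all shared regions on the autosomes. A score of 8 or less was held by 33 clustered regions in replicate 1 (11.3%) and 22 in replicate 2 (7.51%), against 339 (11.9%) and 340 (11.9%) of all shared regions on the autosomes. The pair on chromosome 2 from 110381608 to 110388865 scored 8 in all 4 values, and was singled out after its values were seen. Scores come from the lists that chose the members, so these values are a description and were not tested.

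Scores also differed within groups. Of the 140 groups, 44 held at least 1 region in the top 10% of both lists. A group holds more than 1 region, so this count is not comparable with the shares per region. In a group the highest score exceeded the lowest by a median of 1.81 times in replicate 1 (quartiles 1.33 and 2.88) and 1.63 times in replicate 2 (1.25 and 2.00). The largest ratio in replicate 1 was 8.71, between scores of 61 and 7 on chromosome 3 at 133389262 and 133394661, which scored 36 and 13 in replicate 2. The largest in replicate 2 was 6.94, in the chromosome 5 group that reached 125. Summed over a group, scores had a median of 40.0 in replicate 1, up to 167, and of 37.0 in replicate 2, up to 194. The 167 belonged to the chromosome 2 pair at 43205599 and the 194 to that chromosome 5 group.

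The balance between the libraries was not the same in clustered and other regions. Replicate 1 scored higher in 139 clustered regions, replicate 2 in 130, and 24 were equal, so that the median log2 ratio of replicate 1 over replicate 2 was 0.00. In the other shared regions replicate 1 scored higher in 57.2%, with a median log2 ratio of 0.18. Among the 39 clustered regions with a neighbour at 1 kb or less, replicate 1 scored higher in 15 and replicate 2 in 23, with a median log2 ratio of -0.10. Among the 125 whose nearest neighbour lay at 5 to 10 kb, replicate 1 scored higher in 65 and replicate 2 in 51, with a median of 0.08. Between these classes, the counts were 21 and 19 at 1 to 2 kb and 38 and 37 at 2 to 5 kb. The median was 0.00 in both. The share higher in replicate 1 was 38.5%, 47.7%, 44.7% and 52.0% from the closest to the widest class. It did not rise at every step, and a trend with distance was not tested. The tag window was 142 bp in replicate 1 but 226 bp in replicate 2. Both calls required a 4-fold enrichment over the surrounding 10000 bp, a stretch that can hold the neighbouring region. The part of these settings in the result was not tested. Midpoints of the 2 libraries' peaks differed by a median of 32.0 bp in clustered regions and 26.0 bp in the others.

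**Figure D3:**
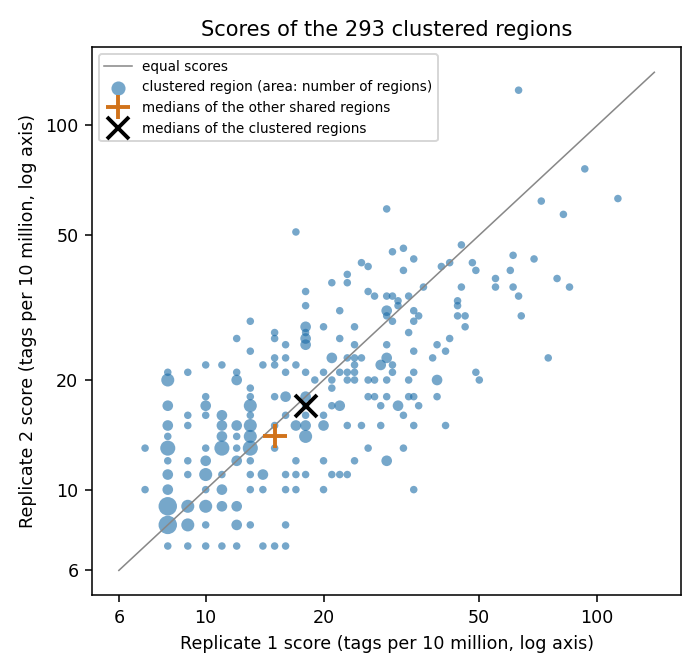
Replicate 2 score (vertical log axis) against replicate 1 score (horizontal log axis) of the 293 clustered regions, in tags per 10000000; point area grows with the number of regions at the same values, and the line marks equal scores. The cross marks the clustered medians of 18 and 17, and the plus sign the medians of 15 and 14 in the other shared regions.

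The third question was whether the order of regions within a group recurred in the other library. The same region led in both libraries in 101 groups, another region led in 28, and in 11 the lead was tied in at least 1 library. Without ties this made 78.3% of 129 groups (Wilson 95% interval 70.4% to 84.5%, counting error only, since all groups share the same 2 libraries). In the 129 pairs taken alone, the same region was higher in 96, the order was opposite in 23, and 10 had a tie. The region at the lower coordinate was the higher one in 47 of the 96 and the region at the higher coordinate in 49. Leading regions of the 101 groups had a median score of 29 (replicate 1) and 23 (replicate 2), and the 107 lesser regions beside them 12 and 13. That leaders scored higher follows from how they were chosen, so these medians only describe the levels.

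Agreement in order is also described by the range of scores within a group. Range and leader come from the same scores, so a contrast between classes of range is in part built in. It was not tested, and groups between the 2 classes are left out. In 33 groups the highest score was at least 2-fold above the lowest in both libraries, and the same region led in 30 of them. In the 28 groups with less than a 1.5-fold range in both libraries, the same region led in 12, another in 9, and 7 were tied. Near the median, counting error alone gave an interval of 10.9 to 26.9 around a score of 18 in replicate 1. In replicate 2 it gave 11.4 to 23.8 around a score of 17. These intervals do not apply to scores far from the median. The part of counting error in the order within these 28 groups was not tested. The 3 exceptions among the wide-ranging groups were the pair on chromosome 9 and the groups of 3 on chromosome 2 at 162922291 and chromosome 6 at 12364107.

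Set beside other neighbours, the recurrence was of a similar level. Over the 153 adjacent pairs within 10 kb, 140 had no tie and 110 of these (78.6%, 71.1% to 84.6%) had the same higher region in both libraries. The share was 75.5% of 485 (71.4% to 79.1%) for adjacent shared regions 10 to 100 kb apart and 73.0% of 1927 (70.9% to 74.9%) beyond 100 kb. These intervals overlap that of the clustered pairs, and the difference was not tested. Within 10 kb the share was 73.7% of 19 pairs up to 1 kb, 65.0% of 20 at 1 to 2 kb, 79.5% of 39 at 2 to 5 kb and 83.9% of 62 at 5 to 10 kb. The intervals of the closest classes were wide, from 51.2% to 88.2% up to 1 kb and from 43.3% to 81.9% at 1 to 2 kb. Across the 153 pairs, which share their libraries and in part their regions, the log2 score ratios in the 2 libraries gave a Pearson's r of 0.72 and a Spearman's rho of 0.71, as a description.

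**Figure D4:**
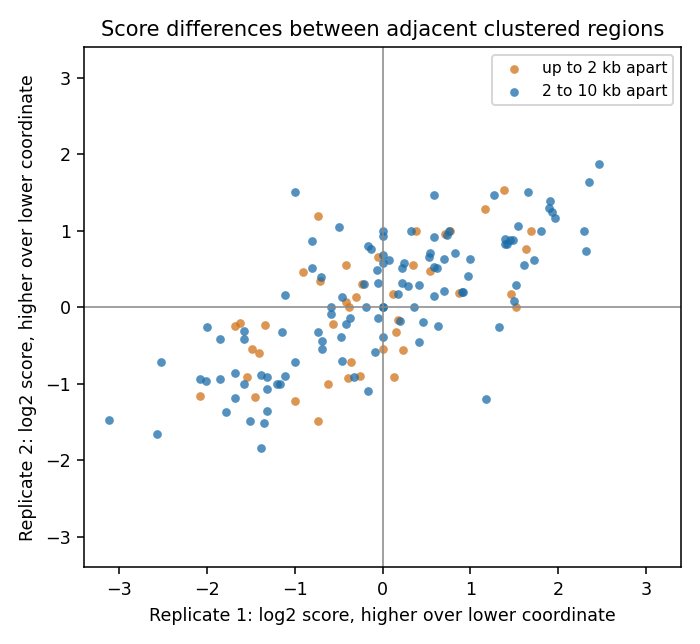
Log2 ratio of scores between adjacent clustered regions, higher over lower coordinate, in replicate 2 (vertical axis) against replicate 1 (horizontal axis), for the 153 pairs within 10 kb, coloured by distance. Of the 140 pairs without a tie, 110 lie at the upper right or lower left, where the same region is higher in both libraries.

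The fourth question was what else was called around the groups. Peaks found in 1 replicate alone lay within 10 kb of 74 clustered regions (25.3%, 20.6% to 30.5%), against 14.4% of all shared regions on the autosomes and 335 (13.1%, 11.9% to 14.5%) of the others. A peak near several regions of a group was counted for each of them, while the intervals treat regions as independent. The clustered share is therefore not like for like with that of the other regions. Such peaks accompanied 41 of the 140 groups, with 28 from replicate 1 and 17 from replicate 2. The groups would therefore be larger if a peak in either library were enough. Replicate 1 contributed such a peak to 26 groups and replicate 2 to 17. The chromosome 13 group of 4 had 1 more peak in replicate 1, and the chromosome 6 group of 4 had none in either list.

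Recurrence was also compared between peaks with and without a neighbour in the same list. In replicate 1, 794 autosomal peaks had another replicate 1 peak within 10 kb, and 58.8% of them were shared (55.4% to 62.2%), against 57.1% of the 4177 without one (55.6% to 58.6%). In replicate 2 the share was 56.2% of 852 (52.9% to 59.5%) with a neighbour and 59.0% of 4014 (57.5% to 60.6%) without one. Among replicate 2 peaks scored at or under that list's median of 11, 29.3% of 368 with a neighbour were shared (24.9% to 34.2%), against 40.7% of 2200 without (38.7% to 42.8%). The corresponding shares of replicate 1 peaks at or under a score of 12 were 36.5% (31.7% to 41.5%) and 37.4% (35.5% to 39.5%). Above the list median, 76.7% of 484 replicate 2 peaks with a neighbour were shared (72.7% to 80.2%), against 81.3% of 1814 without (79.4% to 83.0%). In replicate 1 these shares were 78.3% of 424 (74.1% to 82.0%) and 79.9% of 1931 (78.1% to 81.6%). In replicate 2 the share was thus lower with a neighbour in both score classes, with intervals that parted in the lower class and overlapped in the upper. The intervals treat peaks as independent although peaks with a neighbour enter in groups, so they may be too narrow. Their parting is therefore a description and no test. The difference between the libraries was not tested. The local filter removed 229 candidates in replicate 2 and 76 in replicate 1, and where these lay was not analysed here.

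Groups themselves rarely lay side by side. None of the 140 had another group within 100 kb, 21 had one within 500 kb and 30 within 1 Mb. The longest run was on chromosome 2, where the pair at 43205599, the group of 3 at 43388846 and the pair from 43597354 to 43603296 followed each other at 181788 and 207002 bp. Their summed scores were 167, 140 and 57 in replicate 1 and 93, 122 and 27 in replicate 2, so that the last was the weakest in both. A further group, the pair from 42418487 to 42423043 with sums of 63 and 72, lay 782556 bp before them. On chromosome 5, the group at 123991715 was followed after 350157 bp by a pair from 124348492 to 124353804, with sums of 86 and 47 in replicate 1 and 81 and 37 in replicate 2. On chromosome 4, pairs at 69521931 and 69736598 lay 211877 bp apart, with sums of 26 and 47 in replicate 1 and 39 each in replicate 2. On chromosome 11, the pairs at 35027043 and 35187212 lay 156050 bp apart, the shortest distance between groups.

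Of the 20 shared regions among the 50 best ranks of both lists, 4 were clustered, beside 10.3% of all shared regions on the autosomes. The count is small and the difference was not tested. These 4 were the second region of the chromosome 2 pair at 43205599, the last region of the tight chromosome 2 group, and 2 regions on chromosome 20. The region at 30196523 scored 113 and 63 and had a neighbour 2041.5 bp away with scores of 19 and 20. The region at 62655670 scored 93 and 76 and had a neighbour 6274 bp away with scores of 23 and 39. In both of these chromosome 20 pairs the same region led in both libraries. The lesser region ranked 861 in replicate 1 and 97 in replicate 2 in the second of these pairs.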

How the data were processed

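ChIP-seq peaks of 2 HNF1 libraries from Caco2 cells were used, and the 2 inputs entered only through peak calling. The build hg19 and the tools Bowtie 1.0.0 and HOMER 1.2 are named, without roles, per the submitters' processing notes. Per the file headers, the authors called peaks on each library separately with HOMER findPeaks (factor mode, false discovery rate 0.001, 4-fold over input and over the local 10000 bp). The deposited score is the tag count scaled to 10000000 tags and rounded, and was used only to rank and describe peaks. Depth was 11931439 and 18469659 tags, and fragment lengths were 76 and 226 bp. The tag windows of 142 and 226 bp were unlike, so scores of the lists are not on one scale.

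Overlapping peaks were joined into shared regions. Where 2 peaks of a list fell into a region, the higher score was kept. Regions were chained into groups at 10 kb between midpoints. Groups were named by size, by the worst rank of any member in either list (the best 6 of those with 3 regions and the best 10 pairs), and by distance (the 5 closest and 5 widest pairs). The members, lists and settings were chosen with earlier results of these data known. Shares carry Wilson 95% intervals, which treat regions as independent although clustered regions enter in groups. Regions are not replicates, and no p-value was computed. Alternatives were other distance limits, a stricter overlap, the better scored peaks, edge distances, either list alone, and other sets of chromosomes. Motif, promoter and gene list results had been planned for an hg19 sequence and annotation and were not run, since neither was used here. The grouping was tested on simulated lists with planted groups, and all of them were recovered. Those lists had clear leaders, no tied leads and solitary sites far beyond 10 kb, so harder cases were not tried. Python 3.11.15, numpy 2.4.6, pandas 2.3.3, scipy 1.17.1 and matplotlib 3.10.9 were used.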

Additional observations from a re-analysis of the deposited data

How the results depend on the processing

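The number of clustered regions and groups followed the limits set. Against 293 regions in 140 groups, a 5 kb limit gave 168 in 82 and a 20 kb limit 452 regions (groups within 1.5 times). The better scored 50% of each list gave 127 in 60, from fewer regions by construction. A single list in place of shared regions gave 794 to 852 peaks in 364 to 402 groups, with a median score of 13 in each. The mean of the 2 libraries' median scores was 17.5, and it was 16.5 at 5 kb, 16.5 at 20 kb and 24 in the better scored peaks. The share of groups with the same leading region stayed between 72.6% and 79.2% over the 7 alternatives with both lists. An overlap of 50% of both peaks, edge distances and, added after seeing the data, leaving out chromosome 20 or keeping chromosome X left both counts within 1.5 times. No paired analysis was possible because no input file was used and a replicate number is held by 1 peak list. Motif and gene results with their alternatives were not run. Whether depth limits the order within a group where scores differ by a few tags was not tested.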
